A study of Homo sapiens with 4 samples.

Results

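Histone genes were followed in A2780 cells, a human ovarian cancer cell line, with and without GD-07, which the series text calls a Myc inhibitor. The genes were chosen by symbol. All symbols that begin with HIST1H, HIST2H, HIST3H, HIST4H, H1F, H2AF or H3F were taken, and 26 further symbols that carry PS or end in P and a number, the marks of a pseudogene, were dropped. This left 91 of the 35371 gene symbols in the deposited table. Of these, 75 are HIST genes, here called replication-dependent, and 16 are variant genes. The replication-dependent group holds 6 genes of linker histone H1, 17 of H2A, 23 of H2B, 14 of H3 and 15 of H4. The variant group holds 4 H1, 9 H2A and 3 H3 genes.

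The cells were an established line grown in 2D culture in DMEM with serum, and RNA was sequenced in 2 control and 2 GD-07 libraries. The series text speaks of a vehicle for the controls, whereas the sample labels list no treatment for them, and neither dose nor duration of GD-07 is stated in the labels. Nothing in the labels says that replicates were grown separately, so p-values reflect the scatter of these 4 libraries and no more, and that scatter may be technical. Values were deposited as TPM, a transcript abundance scaled for transcript length and for the library's total. TPM keeps no sequencing depth, and how many reads stand behind a value cannot be told. Of 10 carcinoma and cell-state markers, only VIM (2302 to 2656 TPM), KRT18 and EPCAM reached a mean of 1 TPM, whereas CDH1, KRT19, PAX8, WT1 and MUC16 were at or near 0.

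Histones package DNA into nucleosomes, each built from the core histones H2A, H2B, H3 and H4, with linker histone H1 bound where DNA enters and leaves. Replication-dependent genes lie in clusters, are transcribed mainly in S phase, and make mRNAs that end in a conserved stem-loop in place of a poly(A) tail. This stem-loop is bound by SLBP, which guides the processing, export and translation of the mRNA. Variant genes are scattered, are expressed through the cell cycle, make polyadenylated mRNA and supply histones that replace the replication-dependent kinds outside S phase. Per the labels, mRNA was enriched on oligo(dT) beads, which hold poly(A) tails. The values of the replication-dependent genes therefore describe polyadenylated or carried-over transcripts and are not a measure of the stem-loop mRNA pool.

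The stem-loop is the mark of replication-dependent histone mRNA and stands where a poly(A) tail would otherwise be, so the forms it takes are shown here. In the GENCODE 29 transcript models (GRCh38), a 16-base stem-loop that begins with GG and ends with CC was present in 34 of the 75 replication-dependent genes and, among the variant genes, in H2AFX alone. One gene stands for each of the 5 forms found, followed by H2AFX, with the stem-loop in capitals and 5 flanking bases on each side.
HIST1H2BH: ccaaaGGCTCTTTTCAGAGCCactta
HIST1H4E: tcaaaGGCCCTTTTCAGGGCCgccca
HIST1H2BD: ccaaaGGCTCTTTTAAGAGCCacgca
HIST2H4B: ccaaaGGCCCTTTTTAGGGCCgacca
HIST2H2BC: ccaaaGGCTCTTTTCAGGGCCattta
H2AFX: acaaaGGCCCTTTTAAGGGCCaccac
The form of HIST1H2BH was shared by 18 H2A, H2B and H3 genes, that of HIST1H4E by 5 H4 genes, that of HIST1H2BD by 5 H2B and H3 genes, that of HIST2H4B by 3 H4 genes and that of HIST2H2BC by 3 H2A and H2B genes. In the 31 genes with an annotated stop codon, the stem-loop lay 22 to 67 bases after it. In 24 of the 34 genes the model ran over 100 bases past the stem-loop, so these models describe transcripts that were not cut there. Some models, those of HIST1H2BK and HIST1H2AJ among them, end at the stop codon, and the absence of a stem-loop there says nothing about the gene.

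The variant genes carried most of the histone TPM in every library, although libraries enriched on oligo(dT) do not measure the stem-loop mRNA pool. Summed over all 16 variant genes, the level was 4249.6 and 4266 TPM in the controls and 4628 and 4759.8 TPM with GD-07. The 75 replication-dependent genes together reached 448 and 434 TPM in the controls and 455 and 358 TPM with GD-07. They thus made up 9.54% and 9.23% of histone TPM in the controls and 8.96% and 6.997% with GD-07, which is lower in both GD-07 libraries, with most of the gap in GD-07 replicate 2. All 10 variant genes that averaged 1 TPM or more also exceeded 50 TPM, whereas 1 replication-dependent gene, HIST1H2BK, did.

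Of the 75 replication-dependent genes, 40 averaged 1 TPM or more and were tested, 24 were present at lower values and 11 were listed at 0 in all libraries. HIST1H2BI (mean 1.03 TPM) lay just inside this limit and HIST1H4B (mean 0.870 TPM) just outside. Among those at 0 in all libraries were HIST1H1T and HIST1H2BA, the genes of testis linker histone and testis H2B. The 6 variant genes that were not tested were H1FNT and H1FOO, linker histones of sperm and egg cells, the H2AFB1, H2AFB2 and H2AFB3 genes of a testis H2A, and H3F3C, and each had a mean under 1 TPM. The 5 HIST genes HIST2H2BA, HIST2H2BB, HIST2H2BC, HIST2H2BD and HIST3H2BA are annotated as pseudogenes in GENCODE 29 although their symbols carry no such mark. HIST2H2BC and HIST2H2BD were tested.

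**Figure D1:**
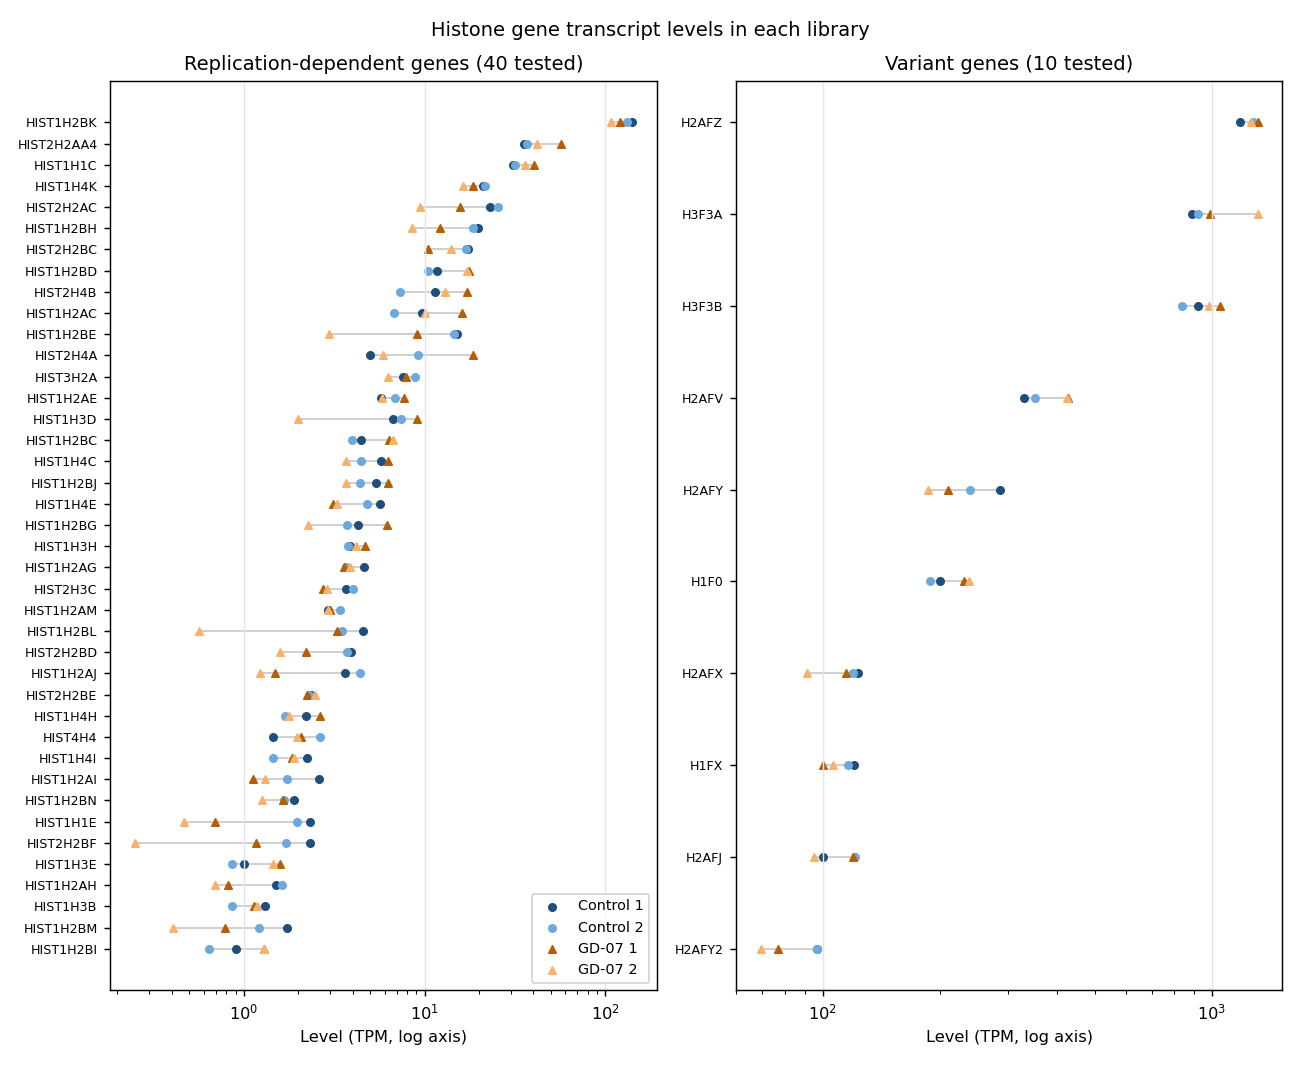
Level of the 40 replication-dependent (left) and 10 variant (right) genes that were tested, in TPM on log axes, with 1 point for each library (circles, control; triangles, GD-07). The variant genes lie above 50 TPM in every library, and only HIST1H2BK does so among the replication-dependent genes.

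Many histone genes are so alike that reads can be divided between them arbitrarily. Only 48 of the 75 replication-dependent genes had over 80% of the 31-base words of their models to themselves, and 16 had under 20%. HIST1H2BK shared 74.4% of its words with H2BFS, HIST1H4K all of them with HIST1H4J, HIST2H3C all of them with HIST2H3A, and HIST2H2AA4 shared 97.2% with HIST2H2AA3. For HIST1H4J, HIST2H3A and HIST2H2AA3 the table listed values at or near 0 and gave the level to the other copy, whereas HIST2H4A and HIST2H4B, which are as alike, both stood above 1 TPM in every library. Levels of these genes are best read as levels of the pair. HIST1H3D had no word of its own, as a longer overlapping gene, AL031777.3, held all of them. HIST2H2BC and HIST2H2BD overlap on opposite strands, as do HIST2H3C and HIST2H4A, and the labels do not say whether reads were counted by strand.

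The comparison asked whether histone transcripts changed when GD-07 was given. Each gene was tested with limma on log2(TPM + 1), and a call means a Benjamini-Hochberg adjusted p under 0.05 over all 13063 tested genes. Over all of these, 417 genes (3.19%) were called lower and 264 (2.02%) higher with GD-07, a split that moved to 418 lower and 372 higher under median-ratio rescaling and to 395 and 383 under quantile normalization. MYC, the target named for GD-07, stood at 86.0 and 67.5 TPM in the controls and 29.1 and 23.6 TPM with GD-07, a log2 fold change of -1.50 ± 0.18 (limma standard error, adjusted p = 0.0109). The control libraries correlated at r = 0.993 and the GD-07 libraries at r = 0.982 across genes. Mitochondrial transcripts took 6.52% of TPM in GD-07 replicate 2 against 2.52% to 4.36% in the other libraries. Markers of other cell types summed to 51.3 and 41.5 TPM in the controls and 26.8 and 38.8 TPM with GD-07. Most of each sum was COL1A1, at 39.0 and 31.1 TPM in the controls and 17.9 and 30.0 TPM with GD-07. Of the 12 markers, 4 were tested, all with estimates below 0. None was called, 2 had an unadjusted limma p under 0.05, beside 24.8% of all tested genes, and CD3E was at 0 in all libraries. The part of the mitochondrial and marker differences in the histone values was not tested.

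Of the 40 tested replication-dependent genes, 2 fell, HIST1H1E and HIST1H2AJ, and none rose, beside the 3.19% and 2.02% over all tested genes. In bulk RNA such as this, fewer cells in S phase and less RNA per cell cannot be told apart. At an unadjusted limma p under 0.05, 12 were lower and 5 higher, 17 of 40, beside 24.8% of all tested genes. Of the estimates, 24 were below 0 and 16 above, with a median of -0.10 on the log2 scale against -0.04 over all tested genes. In 17 genes both GD-07 libraries lay below both controls, and in 9 both lay above, compared with 30.5% and 25.3% of all tested genes. The share called, 2 of 40, was thus near that over all tested genes (681 of 13063). The share at an unadjusted limma p under 0.05 was above that of all tested genes. Estimates were spread over both directions, from -1.32 for HIST1H2BE to 0.65 for HIST2H4B.

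The GD-07 libraries themselves differed on these genes. GD-07 replicate 2 held the lowest of the 4 values in 18 of the 40 replication-dependent genes (45%), compared with 27.3% of all tested genes. GD-07 replicate 1 held the highest in 14 (35%), compared with 17.2% of all tested genes. Without GD-07 replicate 1, the median estimate of the 40 genes was -0.31, compared with 0.002 over all tested genes. Without GD-07 replicate 2, this median was -0.047, compared with -0.066 over all tested genes. With all libraries, the log2 ratio of the summed replication-dependent level was -0.12. It was -0.30 once GD-07 replicate 1 was left out and 0.046 once replicate 2 was, so its direction rested on GD-07 replicate 2. The median estimate of the 40 genes was -0.14 without control replicate 1, compared with 0.028 over all tested genes. It was -0.19 without control replicate 2, compared with -0.095 over all tested genes.

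**Figure D2:**
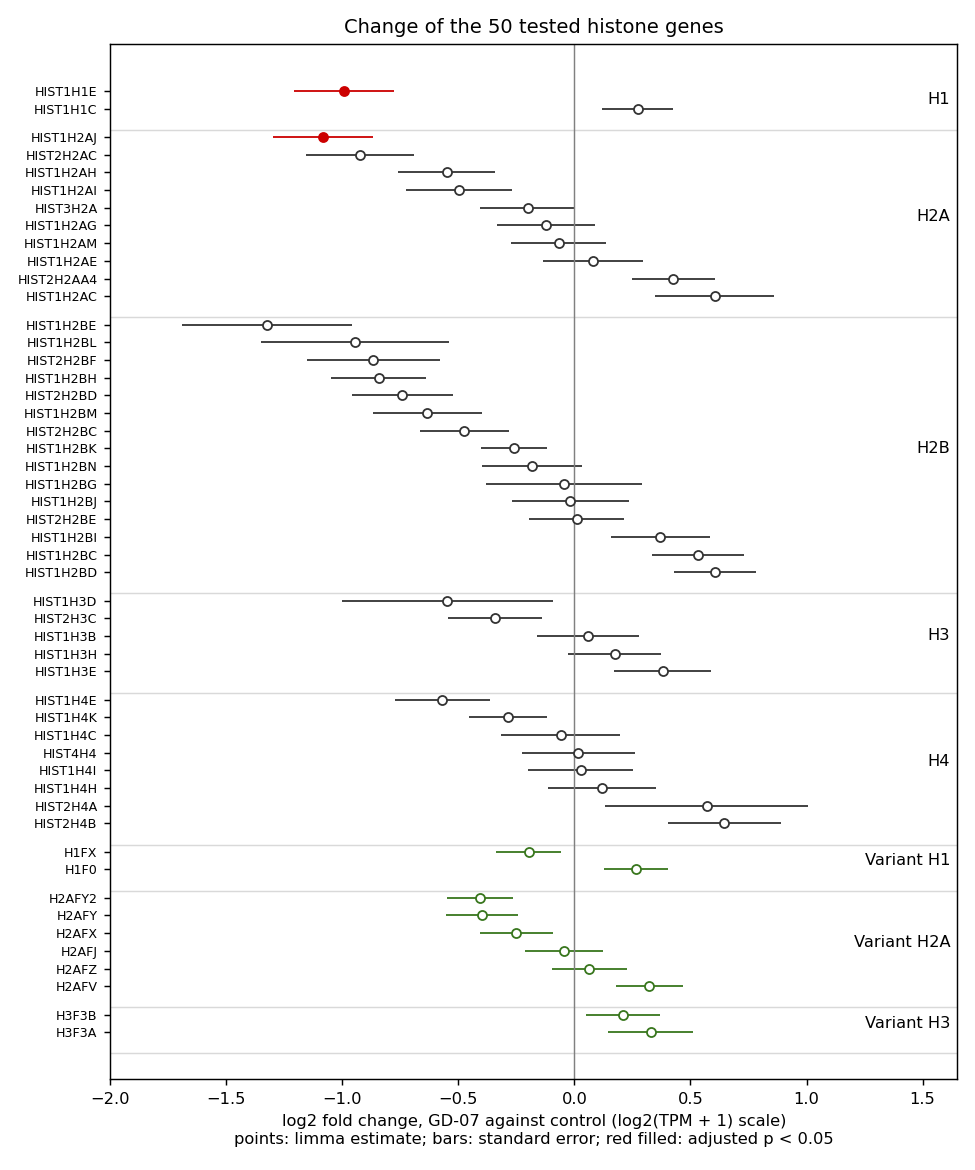
Log2 fold change of each tested histone gene with GD-07 against control, on the log2(TPM + 1) scale, with limma standard errors as bars, grouped by histone class (green, variant genes; filled red, adjusted p under 0.05). HIST1H1E at -0.99 and HIST1H2AJ at -1.08 are the 2 called genes, and the classes spread over both sides of 0.

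Both tested replication-dependent linker histone genes had non-overlapping groups, with estimates of opposite sign. HIST1H1E, which encodes a main somatic H1 (ENSG00000168298, chr6:26156354-26157107, plus strand), was at 2.31 and 1.98 TPM in control cells and 0.690 and 0.469 TPM with GD-07. All GD-07 values were below all control values, and the gene fell by 0.99 ± 0.215 on the log2(TPM + 1) scale (limma standard error, adjusted p = 0.0369). That scale understates the change of so low a gene, whose GD-07 to control ratio of mean TPM was 0.271. The call was lost without control replicate 1 (adjusted p = 0.178) and without control replicate 2 (adjusted p = 0.0543). HIST1H1C, another somatic H1 gene at more than 10 times that level in every library, read 30.6 and 31.7 TPM in the controls and 40.1 and 35.7 TPM with GD-07. Here both GD-07 values were the higher ones, but the log2 fold change of 0.27 ± 0.154 did not pass (limma adjusted p = 0.308). HIST1H1A and HIST1H1T were at 0, and HIST1H1B and HIST1H1D had means of 0.367 and 0.286 TPM.

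Among the H2A genes, HIST1H2AJ (ENSG00000276368, chr6:27814354-27814740, minus strand) read 3.61 and 4.42 TPM in the controls and 1.495 and 1.23 TPM with GD-07. It fell by 1.08 ± 0.214 (limma adjusted p = 0.0308), and the call was lost without control replicate 2 (adjusted p = 0.0878). HIST1H2AJ has only 14.0% of its 31-base words to itself and shares 84.6% with the neighbouring HIST1H2AI. Summed, the pair stood at 6.20 and 6.14 TPM in the controls and 2.61 and 2.55 TPM with GD-07, with less spread within each group than either gene had alone. The sum was formed after the values were seen, and it was called too (log2 fold change -1.002, limma adjusted p = 0.0309).

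HIST2H2AC (chr1:149886975-149887364, plus strand) was the next H2A gene by size of change, at 22.9 and 25.5 TPM in the controls and 15.8 and 9.47 TPM with GD-07. Its log2 fold change of -0.92 ± 0.233 just missed the threshold (limma adjusted p = 0.0531) and passed when only genes averaging 5 TPM or more were tested (adjusted p = 0.0332). HIST2H2AC has only 49.4% of its 31-base words to itself and shares 40% with HIST2H2AA4, so the levels of these genes may not be independent. HIST2H2AA4, the copy that holds the reads of the HIST2H2AA3 and HIST2H2AA4 pair, lay higher with GD-07, at 57.0 and 41.8 TPM against 35.6 and 36.6 TPM. HIST1H2AC also lay higher, at 16.2 and 10.1 TPM against 9.63 and 6.77 TPM, although the lower GD-07 value was close to the higher control. Neither passed, with log2 fold changes of 0.43 ± 0.179 and 0.60 ± 0.256 (limma adjusted p = 0.181 and 0.186). Of the 10 tested H2A genes, 7 estimates were below 0 and 3 above, with a median of -0.16.

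H2B genes made up the largest class by level. Their summed level was 238 and 222 TPM in the controls and 203 and 172 TPM with GD-07, and it is the only replication-dependent class whose sum was lower in both GD-07 libraries than in both controls. HIST1H2BK stood at 139.9 and 132 TPM in the controls and 119.9 and 107 TPM with GD-07. It held 26.3% to 31.2% of all replication-dependent TPM and most of the H2B sum. As said, it shares 74.4% of its 31-base words with H2BFS, which is in none of these sums. The groups of HIST1H2BK did not overlap, but a log2 fold change of -0.26 ± 0.143 did not pass (limma adjusted p = 0.295). None of the 15 tested H2B genes was called by limma (9 at an unadjusted p under 0.05, beside 24.8% of all tested genes). In 9 of the 15 both GD-07 values lay under both controls, beside 30.5% of all tested genes. The estimates of 11 were below 0, with a class median of -0.26.

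The largest estimates among H2B genes were uneven between the GD-07 libraries. HIST1H2BE was at 15.0 and 14.5 TPM without GD-07 and 9.02 and 2.94 TPM with GD-07, a log2 fold change of -1.32 ± 0.367 by limma (adjusted p = 0.0684). HIST1H2BL was at 4.56 and 3.48 TPM in control cells and 3.29 and 0.568 TPM with GD-07, a log2 fold change of -0.94 ± 0.404 by limma (adjusted p = 0.188). In both genes GD-07 replicate 1 lay nearer to the controls than to GD-07 replicate 2. HIST1H2BH was steadier, at 19.6 and 18.6 TPM against 12.2 and 8.49 TPM, and its -0.84 ± 0.205 lay at the threshold (limma adjusted p = 0.0501). It passed with a filter of 5 TPM (adjusted p = 0.0323), and so did HIST1H2BE (adjusted p = 0.0391).

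HIST1H2BD lay the other way, at 11.8 and 10.5 TPM in the controls and 17.6 and 17.1 TPM with GD-07. These 4 values formed 2 tight pairs, with a log2 fold change of 0.61 ± 0.175 by limma (adjusted p = 0.0770). The gene passed under 2 other scalings, median-ratio (adjusted p = 0.0449) and quantile (adjusted p = 0.0440). HIST2H2BC, an annotated pseudogene whose model lies between HIST2H2AA3 and HIST2H2AA4 on chromosome 1, read 17.5 and 16.8 TPM against 10.4 and 13.9 TPM, with a log2 fold change of -0.47 ± 0.193 by limma (adjusted p = 0.173).

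None of the 5 tested H3 genes was called, and none had an unadjusted limma p under 0.05, beside 24.8% of all tested genes. Their summed level was 20.1 and 20.3 TPM in the controls and 22.4 and 15.0 TPM with GD-07, so the GD-07 libraries lay on both sides of the controls. HIST1H3D, the H3 gene with the lowest estimate, showed this spread, at 6.69 and 7.37 TPM in the controls and 9.03 and 2.00 TPM with GD-07. H3 estimates ran from -0.55 to 0.38, with a median of 0.06.

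None of the 8 tested H4 genes was called by limma either (2 at an unadjusted p under 0.05, beside 24.8% of all tested genes). Of the H4 estimates 3 were below 0 and 5 above, with a median of 0.02. HIST1H4K, which stands for itself and HIST1H4J, was the highest, at 21.0 and 21.6 TPM in the controls and 18.4 and 16.2 TPM with GD-07. Its log2 fold change was -0.29 ± 0.168 (limma adjusted p = 0.322). HIST2H4A and HIST2H4B, near-identical copies on chromosome 1, were at 5.00 and 9.19 TPM and at 11.5 and 7.28 TPM in the controls, so each control split the pair differently, yet their sum was 16.5 TPM in both. With GD-07 the sum was 35.7 TPM in replicate 1 and 18.8 TPM in replicate 2, so most of the difference came from replicate 1. Neither copy passed, with log2 fold changes of 0.57 ± 0.438 for HIST2H4A and 0.65 ± 0.242 for HIST2H4B (limma adjusted p = 0.455 and 0.143), and that of HIST2H4A turned to -0.18 without GD-07 replicate 1.

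**Figure D3:**
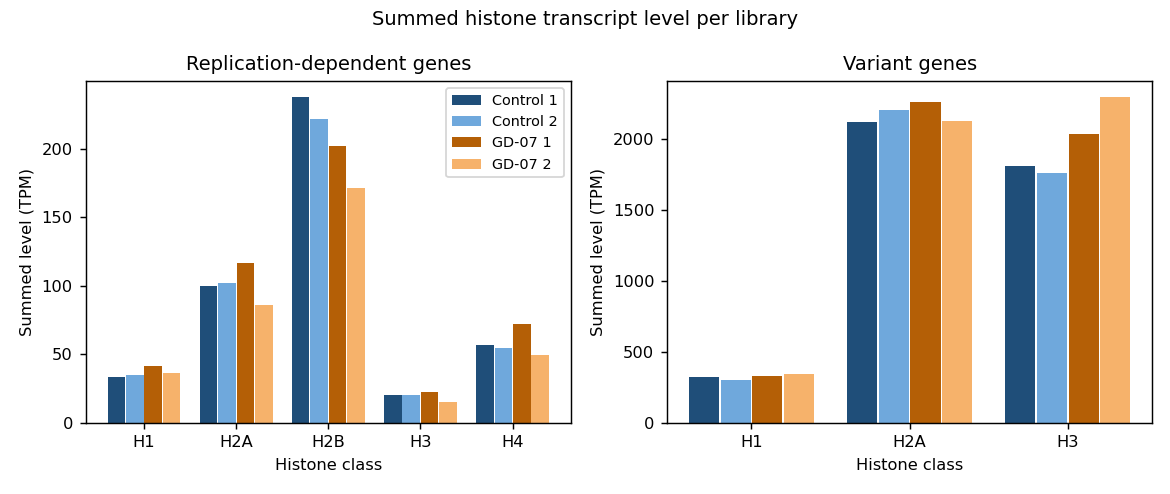
Summed level of each histone class in TPM on linear axes from 0, with 1 bar for each library (blue, control; orange, GD-07), for replication-dependent genes on the left and variant genes on the right. Replication-dependent H2B is lower in both GD-07 libraries (203 and 172 TPM) than in both controls (238 and 222 TPM), and variant H3 is higher (2037 and 2293 TPM against 1810.4 and 1759 TPM).

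Most H2A and H2B genes lie head to head and share the DNA between their start sites, and 13 such pairs were found, with start sites 124 to 331 bases apart. Both genes were tested in 8 pairs. In 4 pairs both estimates were below 0, in 1 both were above, and in 3 the signs differed. HIST1H2AC and HIST1H2BC were the pair with both estimates above 0, and HIST1H2BC, at 4.42 and 3.96 TPM in the controls and 6.32 and 6.69 TPM with GD-07, had a log2 fold change of 0.53 ± 0.198 by limma (adjusted p = 0.141). HIST1H2BM, the partner of HIST1H2AJ, read 1.73 and 1.22 TPM against 0.791 and 0.403 TPM, with a log2 fold change of -0.63 ± 0.234 by limma (adjusted p = 0.139). HIST2H2BE, the partner of HIST2H2AC, was even across libraries at 2.23 to 2.46 TPM, and HIST2H2AA4 and HIST2H2BC had estimates of opposite sign. The pairs, and the genes named with them, were looked at after the values were seen.

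**Figure D4:**
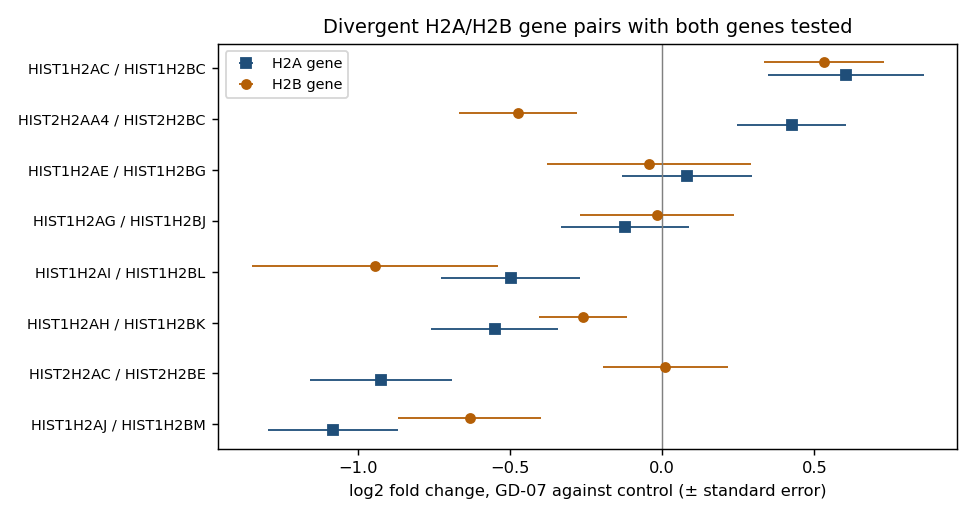
Log2 fold change with limma standard error of both genes of the 8 head-to-head H2A and H2B pairs in which both were tested (squares, H2A; circles, H2B). In 5 of the 8 pairs both genes lie on the same side of 0, and HIST2H2AA4 with HIST2H2BC is a pair that lies on both sides.

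The promoters of the pairs that lay farthest apart in response, HIST1H2AJ with the lowest H2A estimate and HIST1H2AC with the highest, are printed to show what such shared start regions hold. Each runs from 250 bases before to 50 bases after the RefSeq start (GRCh38.p14), on the gene's own strand, and the choice was made after the values were seen. The first is chr6:27814728-27815027 (minus strand) and the second chr6:26123922-26124221 (plus strand). Capitals mark the CCAAT box (CCAAT, or ATTGG on the other strand), the TATA box TATAAA and the octamer ATTTGCAT (ATGCAAAT on the other strand), which OCT1 is known to bind in H2B promoters.
HIST1H2AJ promoter: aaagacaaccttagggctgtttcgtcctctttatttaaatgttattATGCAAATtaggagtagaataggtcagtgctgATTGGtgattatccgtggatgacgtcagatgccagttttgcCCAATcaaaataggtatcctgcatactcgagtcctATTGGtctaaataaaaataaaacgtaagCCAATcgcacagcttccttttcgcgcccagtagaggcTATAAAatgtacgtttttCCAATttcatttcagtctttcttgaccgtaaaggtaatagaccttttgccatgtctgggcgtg
HIST1H2AC promoter: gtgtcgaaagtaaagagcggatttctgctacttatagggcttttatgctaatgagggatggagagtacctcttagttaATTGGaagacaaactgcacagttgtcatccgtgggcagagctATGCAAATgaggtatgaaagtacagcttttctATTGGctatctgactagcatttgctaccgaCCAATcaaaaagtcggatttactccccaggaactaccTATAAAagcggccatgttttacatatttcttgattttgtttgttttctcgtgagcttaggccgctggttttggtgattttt
Both windows held a single octamer, a single TATA box and several CCAAT boxes, 5 in HIST1H2AJ and 3 in HIST1H2AC. RefSeq windows were matched for 71 of the 91 genes by symbol, 60 replication-dependent and 11 variant. With both strands searched, CCAAT was in 83.3% of the replication-dependent, 81.8% of the variant and 34.6% of all 35116 RefSeq windows. TATAAA was in 65%, 36.4% and 11.5%, and the octamer in 38.3%, 9.09% and 1.77%. By class of the replication-dependent genes, CCAAT was in all H1, H2A, H2B and H3 windows but in only 23.1% of the H4 windows. The octamer was in 68.8% of the H2A and 80% of the H2B windows and in none of the H1, H3 or H4 windows. The E-box CACGTG, the motif known to bind MYC with MAX, was in 7.26% of all windows and in 0 of the 71 histone windows, which says only that these letters are not in these stretches.

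By position, the replication-dependent genes fell into 3 stretches of the HIST1 cluster on chromosome 6 and smaller groups on chromosomes 1 and 12. The first stretch (chr6:25726132-26285638) held 34 genes, and its 16 tested genes had a median of 0.07 with 7 estimates below 0 and 9 above. It holds HIST1H1E as well as HIST1H2AC, HIST1H2BC, HIST1H2BD, HIST1H2BE and HIST1H2BH, so genes with estimates in opposite directions lie within one stretch. The third stretch (chr6:27807444-27893843), which holds HIST1H2AJ, had 7 of 8 estimates below 0 and a median of -0.39. HIST2 genes on chromosome 1 had 5 of 9 estimates below 0 and a median of -0.34. Differences between stretches were not tested.

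Because the libraries were selected by poly(A) tail, the genes were also divided by their models' ends. A poly(A) signal hexamer lay within the last 40 bases of a model in 26 replication-dependent genes, whose median level was 4.02 TPM, compared with 0.674 TPM in the 49 others. The 21 tested genes with a hexamer had a median log2 fold change of -0.02, with 11 estimates below 0, and the 19 tested genes without one had a median of -0.26, with 13 below 0. Both called genes, HIST1H1E and HIST1H2AJ, belong to those without. Models that end at the stop codon cannot show a hexamer, the split was chosen after the values were seen, and the difference was not tested.

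Of the 10 tested variant genes none was called, and the smallest limma adjusted p was 0.122 (H2AFY2). At an unadjusted limma p under 0.05 there were 2, both lower, beside 24.8% of all tested genes. Estimates ran from -0.40 to 0.33, with 5 below 0, 5 above and a median of 0.01. In 4 genes both GD-07 values lay below both controls and in 4 both lay above, beside 30.5% and 25.3% of all tested genes. By the limma estimate on log2(TPM + 1), no variant gene reached a 1.5-fold difference. Of the 40 replication-dependent genes 9 did downward and 3 upward, beside 8.42% and 5.34% of all tested genes. This scale understates changes of low genes. By the ratio of mean TPM others would be counted, such as HIST1H2AH (GD-07 to control ratio 0.481) and HIST1H2BI (1.66). The replication-dependent genes were also lower in level, with a median of 1.12 TPM against 109.9 TPM over all members. Whether the groups differ in their response was not tested.

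Among the H2A variants, none of which was called, the macroH2A genes, whose products carry a large extra domain and are linked to silent chromatin, had the lowest estimates. H2AFY stood at 285 and 239 TPM in the controls and 210.0 and 187 TPM with GD-07, a log2 fold change of -0.40 ± 0.155 by limma (adjusted p = 0.158). H2AFY2 was at 96.9 and 96.7 TPM and at 76.6 and 69.3 TPM, likewise -0.40 ± 0.142. Both estimates were -0.48 without GD-07 replicate 1, and they were -0.31 for H2AFY and -0.33 for H2AFY2 without GD-07 replicate 2. H2AFX, the histone phosphorylated at DNA breaks and the variant gene with a stem-loop, stood at 123 and 119.9 TPM in the controls and 114 and 91.0 TPM with GD-07 (log2 fold change -0.25, limma adjusted p = 0.356).

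H2A.Z is placed at promoters and comes from a pair of genes. H2AFZ, the highest of the 91 genes by mean level, was even at 1184 and 1273 TPM against 1311 and 1257 TPM, and its groups overlapped. H2AFV stood at 329 and 352 TPM in the controls and 428 and 423 TPM with GD-07, with no overlap and a log2 fold change of 0.32 ± 0.143 by limma (adjusted p = 0.202). H2AFJ read 99.9 and 121 TPM against 119.6 and 95.0 TPM, with no direction that held, as its log2 fold change of -0.05 turned to 0.023 with quantile normalization and to 0.09 without control replicate 2.

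H3.3, the H3 laid down outside replication, is encoded by H3F3A and H3F3B, and both lay higher with GD-07. H3F3B (chr17:75776434-75785893, minus strand) stood at 919 and 838 TPM in the controls and 1049.9 and 982 TPM with GD-07, a log2 fold change of 0.21 ± 0.159 by limma (adjusted p = 0.447). H3F3A (chr1:226061851-226072001, plus strand) stood at 890.4 and 920.0 TPM in the controls and 987 and 1310.5 TPM with GD-07. Its log2 fold change was 0.33 ± 0.183 by limma (adjusted p = 0.2996). The estimate was 0.53 without GD-07 replicate 1, which leaves replicate 2 alone, and 0.12 without replicate 2. The high value in GD-07 replicate 2 came with a value of 0 for the pseudogene H3F3AP4, which was at 227, 139.7 and 173 TPM in control replicates 1 and 2 and GD-07 replicate 1. All 31-base words of that pseudogene also occur in H3F3A. Summed, both were at 1117 and 1059.7 TPM in the controls and 1160.1 and 1310.5 TPM with GD-07, still without overlap but with replicate 1 close to the controls. The log2 fold change of this sum, formed after the values were seen, was 0.18 (limma adjusted p = 0.534).

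The variant linker histones had estimates of opposite sign. H1F0, a linker histone that builds up in resting and differentiated cells, stood at 199.99 and 189 TPM in the controls and 230.3 and 237 TPM with GD-07, a log2 fold change of 0.27 ± 0.139 by limma (adjusted p = 0.271). H1FX stood at 120.5 and 116 TPM in the controls and 99.996 and 106 TPM with GD-07 (-0.20 ± 0.139, limma adjusted p = 0.415). In neither did the groups overlap. CENPA, the H3 of centromeres, is not covered by the symbol rule and stood at 31.1 and 31.5 TPM in the controls and 28.7 and 25.5 TPM with GD-07 (log2 fold change -0.21, limma adjusted p = 0.450).

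Genes that make and handle histones were set beside the histone genes, from lists of known function. SLBP, the stem-loop binding protein, stood at 144 and 123 TPM in the controls and 102 and 99.0 TPM with GD-07, and ERI1, the exonuclease that trims histone mRNA ends, was at 10.3 and 10.1 TPM against 6.33 and 6.28 TPM. In both, all GD-07 values were below all control values, though for SLBP the gap between the groups was no larger than that between the controls. Neither passed, with log2 fold changes of -0.40 ± 0.147 and -0.62 ± 0.186 (limma adjusted p = 0.140 and 0.0844). None of the 30 tested genes of histone mRNA processing and decay was called by limma, and none of the 12 of histone gene transcription. At an unadjusted limma p under 0.05 stood 4 of the 30 and 5 of the 12, beside 24.8% of all tested genes. The medians were -0.11 and -0.29. In the transcription list YY1, a factor that binds histone promoters, and CCNA2, the S phase cyclin A, had the smallest p (log2 fold changes -0.64 and -0.61, limma adjusted p = 0.0581 and 0.0539). NPAT, the coactivator of histone genes, was even at 4.39 to 6.19 TPM.

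Of 24 tested S phase histone chaperones 4 fell and none rose, beside 3.19% and 2.02% of all tested genes, with a median of -0.21 against -0.04. GRWD1, a histone-binding protein, fell by 0.99 ± 0.210 (limma adjusted p = 0.0350), from 40.1 and 38.6 TPM to 24.1 and 15.5 TPM. MCM2, the helicase subunit that binds H3 and H4, was at -0.72 on the log2 scale (limma adjusted p = 0.0398), and SSRP1 of the FACT complex at -0.68 (adjusted p = 0.0427). CHAF1A, the large subunit of the CAF-1 complex that deposits new H3 and H4, fell by 0.64 (limma adjusted p = 0.0497), from 115 and 102 TPM to 75.5 and 62.6 TPM. NAP1L1, a chaperone of H2A and H2B, lay the other way, at 613 and 579 TPM in the controls and 824 and 987 TPM with GD-07, and its 0.60 ± 0.163 did not pass (limma adjusted p = 0.0662). MCM2, SSRP1 and CHAF1A lost the call under median-ratio rescaling (adjusted p = 0.0583, 0.0846 and 0.0719), and all of them and GRWD1 without the variance trend. Each of the 3 was lost without control replicate 1 (adjusted p = 0.211, 0.270 and 0.297), and SSRP1 and CHAF1A also without control replicate 2 (adjusted p = 0.131 and 0.0728).

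Of 18 tested variant chaperones 2 fell and none rose, beside the same 3.19% and 2.02%, with a median of -0.22. RUVBL1, an ATPase of the complexes that exchange H2A.Z, stood at 149 and 150.2 TPM in the controls and 83.8 and 72.9 TPM with GD-07 and fell by 0.93 ± 0.145 (limma adjusted p = 0.0197). ANP32E, which removes H2A.Z from chromatin, was at 286 and 262 TPM against 183 and 158 TPM and fell by 0.68 ± 0.149 (limma adjusted p = 0.0372), a call lost under median-ratio rescaling (adjusted p = 0.0670), without control replicate 1 (adjusted p = 0.254) and without control replicate 2 (adjusted p = 0.0793). HIRA, a chaperone of H3.3, read 18.6 and 15.7 TPM against 12.7 and 10.3 TPM, or -0.54 on the log2 scale (limma adjusted p = 0.124). ZNHIT1, a subunit of a complex that exchanges H2A.Z, lay higher, at 142.9 and 139.6 TPM against 93.2 and 103 TPM, with 0.53 ± 0.141 (limma adjusted p = 0.0626). None of the 7 genes of CENPA and its deposition was called by limma, and 0 had an unadjusted p under 0.05, beside 24.8% of all tested genes.

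Other genes of S phase, the time when replication-dependent histone genes are transcribed, were mostly lower with GD-07. Of 34 tested S phase genes, MCM2 again among them, 6 fell and none rose, beside 3.19% and 2.02% of all tested genes. Of these 34 estimates 33 were below 0, beside 53.8% of all tested genes. The median was -0.48, against -0.10 for the 40 replication-dependent histone genes and -0.04 over all tested genes. The largest log2 fold changes among the called were -1.19 for CDC6, which loads the replicative helicase, -1.15 for POLA1, the polymerase linked to primase, -0.997 for MCM7 of that helicase and -0.81 for MCM10, which helps to start it (limma adjusted p = 0.0194, 0.0335, 0.0230 and 0.0440). Without control replicate 1 the calls of POLA1 (adjusted p = 0.191) and MCM10 (adjusted p = 0.322) were lost. The difference between these lists was not tested, and the share of cells in S phase was not measured.

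**Figure D5:**
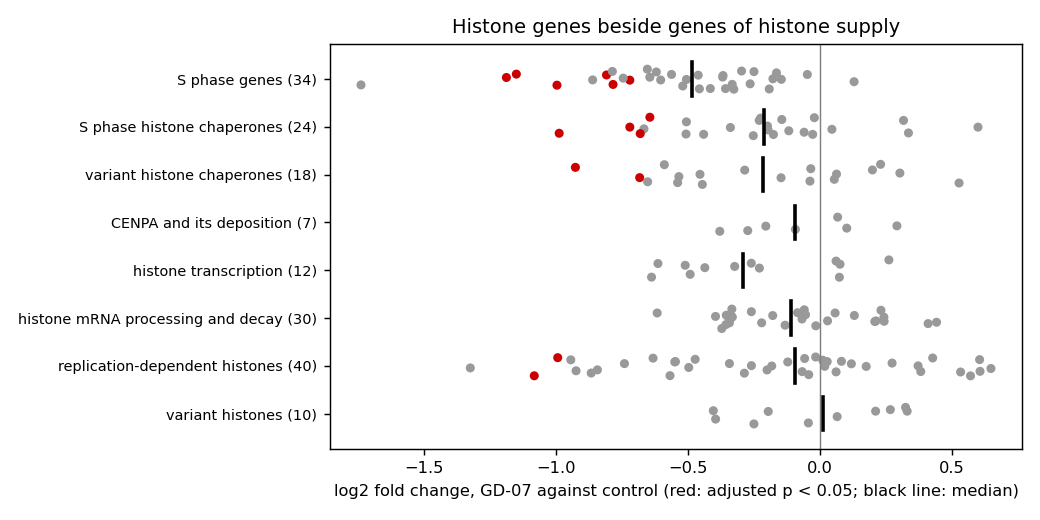
Log2 fold change of every tested gene (points; red, adjusted p under 0.05) in lists of S phase genes, histone chaperones, CENPA deposition, histone transcription and histone mRNA processing, above the replication-dependent and variant histone genes, with the median of each list as a black line and the number tested in brackets. The S phase genes have a median of -0.48, whereas the replication-dependent histone genes spread on both sides of 0 around -0.10.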

How the data were processed

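RNA from 4 libraries, 2 control and 2 GD-07, was analysed from 1 table of gene symbols deposited by the authors in TPM. Per the labels, mRNA was enriched with oligo(dT) beads and sequenced with paired ends. The submitters' processing notes name GRCh38, kallisto, Subread and limma 3.60.4, with roles not given in the sources used here, and neither depth nor the treatment of reads shared between near-identical genes is known. Samples were grouped by their labels. Genes averaging 1 TPM or more (13063 of 35371) were transformed as log2(TPM + 1), which understates changes of low genes, and tested two-sided in R 4.3.3 by limma 3.58.1 (lmFit and eBayes, with an intensity trend). A Benjamini-Hochberg adjusted p under 0.05 was a call. Errors are limma standard errors. With 2 libraries against 2, an exact permutation test cannot give a p below 0.333, so none was run. With 1 library left out, the single library that remained was taken to scatter as much as the pair of the other group, and the tested genes were kept. The fit was also tested on simulated data, with genes drawn independently, where the share of calls on unchanged genes came out above the adjusted p threshold.

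The histone genes, the other lists and the alternatives were chosen with earlier results of these data known. The rule for genes given with values took all tested variant genes and the replication-dependent genes that passed. It also took the 12 replication-dependent genes highest by mean level and the 4 with the largest change in each direction. From each other list it took up to 4 that passed or else the 2 with the smallest limma p, and MYC and CENPA were added. Of the genes so taken, HJURP, OIP5 and LUM are not described, and KRT18 and EPCAM are named without values. NPAT, HIRA, NAP1L1, ZNHIT1, H2BFS, H3F3AP4, HIST1H3D, HIST1H2BC, HIST1H2BM, HIST2H2BE and the genes near or under the filter were added after their values were seen. All 91 symbols were matched by name to GENCODE 29 for coordinates, stem-loops and shared 31-base words (forward strand). Promoters are RefSeq's (GRCh38.p14).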

Additional observations from a re-analysis of the deposited data

How the results depend on the processing

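Changes of pseudocount (0.1 or 5 TPM) kept HIST1H1E and HIST1H2AJ as the 2 called replication-dependent genes, while CHAF1A (limma adjusted p = 0.0553 at 0.1 TPM) and MCM10 (0.0506 at 5 TPM) lost their calls. The size of the estimates moved, to -1.74 at 0.1 TPM and -0.36 at 5 TPM for HIST1H1E, and to -1.49 and -0.50 for HIST1H2AJ. With no filter on low values nothing was called by limma, in the histone groups, the supply lists (0) or over all genes (0, with 3970 at an unadjusted p under 0.05), against 681 in all and 11 in the lists; the cause was not tested. With a filter of 5 TPM, 3 of the 17 replication-dependent genes tested were called, all lower (HIST1H2BE, HIST1H2BH and HIST2H2AC). Over all genes 884 of 9621 were called (550 lower, 334 higher) and in the lists 21. HIST1H1E and HIST1H2AJ fell under this filter. Median-ratio rescaling and quantile normalization each called 1 replication-dependent gene higher, HIST1H2BD. Quantile normalization called 7 list genes, and the log2 ratio of the variant sum was 0.17 under median-ratio rescaling against 0.14. Without the trend 385 genes (227 lower, 158 higher) and 4 list genes were called. With near-identical copies summed, added after seeing the data, 3 of 38 replication-dependent genes were called, beside 727 of all 13060 genes tested.

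Leaving out 1 library gave 310 to 2241 calls over all genes (160 to 1358 lower, 150 to 883 higher), 2 to 10 in the replication-dependent genes (2 to 10 lower, 0 to 3 higher), 0 to 3 in the variant genes and 4 to 36 in the lists. The replication-dependent median ran from -0.31 to -0.047, the log2 ratio of its sum from -0.30 to 0.046 and that of the variant sum from 0.12 to 0.16. The 3 variant calls (H2AFY, H2AFY2 and H3F3A) arose without GD-07 replicate 1. H2AFJ turned from -0.05 to 0.023 with quantile normalization and ranged from -0.21 to 0.12 with a library left out, above 0 when that was control replicate 2 (0.09) or GD-07 replicate 2. HIST2H4A (0.57) ranged from -0.18 without GD-07 replicate 1 to 1.32 with replicate 2 left out.

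Same-numbered replicates of the groups deviated in opposite ways across genes (r = -0.28), so the numbers were not taken to pair the samples. A replicate block gave 912 calls over all genes, 7 in the replication-dependent genes, all lower, 0 in the variant genes and 18 in the lists. A crossed pairing, added after seeing the data, gave 2934 (1736 lower, 1198 higher), 13 (9 lower, 4 higher), 0 and 39 calls. As TPM keeps no depth, the counting error of genes near 1 TPM, HIST1H1E among them, is unknown.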
